A study of Caenorhabditis elegans with 3 samples.

Results

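The genes described here encode subunits of the 26S proteasome of the nematode Caenorhabditis elegans. They were taken by symbol from the probes that the platform annotation ties to a single gene: every symbol made of pas, pbs, rpt or rpn and a number. The rule gave 32 probes of 31 genes, out of 15168 genes with such a probe in the whole data set. Of these 31 genes 12 belong to the core particle (6 pas and 6 pbs) and 19 to the regulatory particle (6 rpt and 13 rpn). The gene table lists 33 genes of these classes, and pas-3 and pbs-1 were not analysed here. All 31 genes had a value on every array. The rule uses only symbols and no measured value, but this gene family was chosen with earlier results of these data known.

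The proteasome is the chief protease of the cytosol and nucleus and degrades proteins that carry ubiquitin chains. Its core particle is a barrel with alpha subunits (pas genes) in the outer rings, which gate the entry, and beta subunits (pbs genes) in the inner rings, some of which hold the proteolytic sites. The regulatory particle sits on the barrel: its base holds the rpt ATPases, which unfold the substrate, with scaffold subunits and ubiquitin receptors, and its lid holds the subunit that cuts off ubiquitin. In C. elegans most subunits are essential, and several have been tied to the germ line, to larval growth and to resistance to stress.

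RNA of early L4 hermaphrodites, worms in the last larval stage, was set against a mixed reference on 2-colour DNA arrays. There was 1 group, of 3 worm preparations. Each was measured on an array of its own, with the early L4 RNA in channel 2 and the reference RNA in channel 1. The labels call the reference wild type and name for the early L4 worms no genotype, strain or treatment, no age in hours and no separate cultures. The p-values below therefore cover only the spread among 3 arrays, which may be technical. What was mixed to make the reference is not said. Values are log2 ratios centred on the median of each array. A positive value was read as more RNA in early L4 than in the reference; this is likely, since the descriptions name early L4 before the reference, but neither the numerator nor the dyes are stated. The 3 columns correlated positively with each other, so they run the same way. Each array had between 19841 and 19905 probes with a value, and the number of arrays limits the precision.

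Markers of several tissues were checked on the same arrays. Of 30 genes for major sperm proteins 28 were higher, with medians of 2.19, 1.39 and 1.51 on the arrays of preparations 1, 2 and 3, and 0 were lower. Whether the probes of this gene family tell its RNAs apart was not tested. Of 10 oocyte and eggshell genes 9 were lower, with medians of -1.77, -2.10 and -2.15. Of 7 body muscle genes 6 were higher (median 1.43), and of 7 intestinal genes 6 were higher (median 1.49). Of 8 neuronal genes 3 were lower (median -0.71) and 0 higher. By the same test, given in the next paragraph, 12.6% of all genes were called higher and 10.1% lower. Whole worms were measured, so fewer cells of a type and less RNA per cell cannot be told apart, and the part of this tissue makeup in the values of the proteasome genes was not tested.

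Most proteasome genes had mean ratios above 0 (27 of 31), and 9 of 31 passed the test as higher in early L4 than in the reference. They were pbs-5, rpt-2, rpn-6.2, rpn-1, rpn-10, pbs-6, pas-2, rpn-12 and pas-1, between 1.69-fold for pas-1 and 3.01-fold for pbs-5, and they came from both rings of the core and from both base and lid of the regulatory particle. The test was limma on the mean ratio against 0, with Benjamini-Hochberg adjustment over the 15159 genes tested and a threshold of 0.05. Over all genes tested, 12.6% were called higher and 10.1% lower. Among the proteasome genes 29.0% were called higher, and 0 were called lower. If the ratio ran the other way, the same 9 genes would be the ones lower in early L4, with pbs-5 the lowest of the 31. A called difference of 2-fold or more was seen in 5 of the 31 genes, pbs-5, rpt-2, rpn-6.2, rpn-1 and rpn-10, against 8.52% of all genes. At an unadjusted p under 0.05, 15 of the 31 genes were higher and 0 lower, against 18.1% of all genes higher. The median of the 31 mean ratios was 0.37, a 1.29-fold difference, beside -0.01 for all genes tested. On single arrays the median of the 31 genes was 0.49, 0.56 and 0.49. In all, 20 of 31 genes were above 0 on every array, against 26.2% of genes with 3 values, and pas-7 alone was below 0 on every array. These shares describe the genes, and no test of the set was made. The number called rested on the preparations: it was 14 without preparation 1, 4 without preparation 2 and 6 without preparation 3. Over all genes it moved in the same direction each time, from 3444 to 3931, 2423 and 2762.

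**Figure D1:**
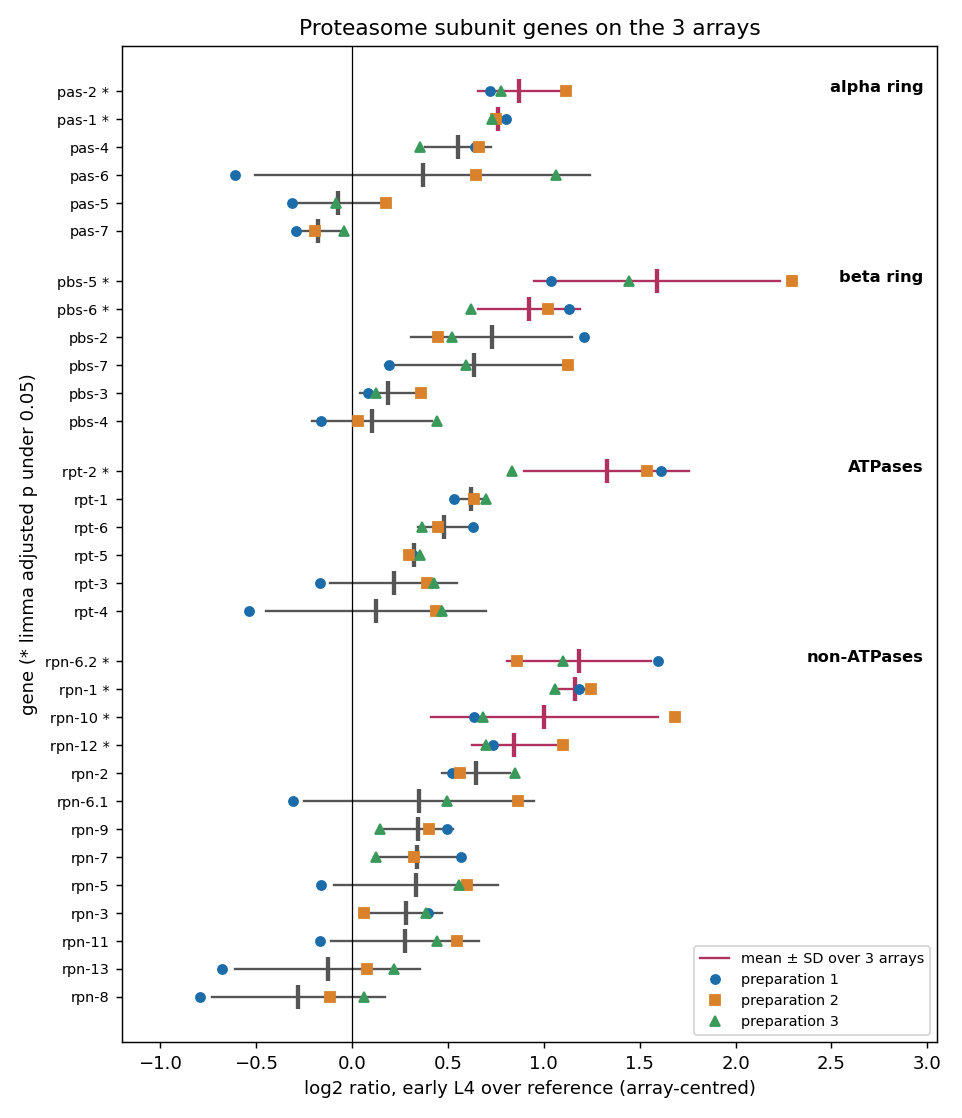
Array-centred log2 ratio (x axis, early L4 over reference) of the 31 proteasome genes (y axis), grouped as alpha ring, beta ring, ATPases and non-ATPases; symbols are the 3 preparations, the vertical tick is the mean, the horizontal line is ± 1 SD, and stars and red lines mark the 9 genes with limma adjusted p under 0.05. pbs-5 has the highest mean, 1.59, and rpn-8 the lowest, -0.28.

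In the alpha ring, pas-1 and pas-2 rose and the other 4 genes did not pass. Alpha subunits frame the entry pore and bind the regulatory particle. pas-2 (D1054.2) had log2 ratios of 0.72, 1.12 and 0.78 in preparations 1, 2 and 3, all well above 0. Its mean was 0.87 ± 0.21 (SD, n = 3; limma adjusted p = 0.0179), a 1.83-fold difference. pas-1 (C15H11.7) had 0.80, 0.75 and 0.73, so the arrays gave nearly the same value. Its mean was 0.76 ± 0.04 (SD, n = 3; limma adjusted p = 0.0281), and only 1.03% of genes had an SD as small or smaller. Neither call held without preparation 2 (limma adjusted p = 0.15 for pas-1 and 0.162 for pas-2) or without preparation 3 (limma adjusted p = 0.123 and 0.056). In these fits of 2 arrays the mean of pas-1 hardly changed, at 0.77 and 0.78. That of pas-2 was 0.75 and 0.92. pas-4 (C36B1.4) lay above 0 on each array too, with 0.64, 0.66 and 0.35, and a mean of 0.55 that missed the threshold (limma adjusted p = 0.0983). pas-5 (F25H2.9) and pas-7 (ZK945.2) had the lowest means of the core, -0.07 ± 0.24 and -0.18 ± 0.12 (SD, n = 3). For pas-7 the 95% interval of the mean ran from -0.65 to 0.30, so no difference from 0 was detectable with 3 arrays. pas-6 (CD4.6) was the gene on which the arrays differed most, with -0.61, 0.65 and 1.06 in preparations 1, 2 and 3. Preparation 1 was on the opposite side of 0 from the other two, and the SD of 0.87 was larger than that of 95.7% of genes.

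In the beta ring every mean was above 0, and pbs-5 and pbs-6 rose. pbs-5 (K05C4.1) encodes the subunit that carries the chymotrypsin-like site. It had 1.04, 2.29 and 1.44 in preparations 1, 2 and 3, the highest value of any proteasome gene on the arrays of preparations 2 and 3 but not on that of preparation 1. Its mean was 1.59 ± 0.64 (SD, n = 3; limma adjusted p = 0.00263), a 3.01-fold difference. pbs-6 (C02F5.9), a beta subunit without a proteolytic site, had 1.13, 1.02 and 0.62 and a mean of 0.92 ± 0.27 (SD, n = 3; limma adjusted p = 0.0147). Its values were all above 0 and spread less than those of pbs-5, but without preparation 2 it no longer passed (limma adjusted p = 0.0884). pbs-2 (C47B2.4), the subunit with the trypsin-like site, had 1.21, 0.45 and 0.52; preparation 1 was high, and the mean of 0.73 narrowly missed the threshold (limma adjusted p = 0.054). It was the only one of the 31 genes with more than 1 probe, and its probes had means of 0.67 and 0.79, each with the highest value in preparation 1. pbs-7 (F39H11.5) had 0.19, 1.12 and 0.60, with a mean of 0.64 (adjusted p = 0.0926). pbs-3 (Y38A8.2) and pbs-4 (T20F5.2) had means of 0.19 and 0.10 and lay close to 0 on every array, between -0.16 and 0.44. The subunits with a proteolytic site that were measured, pbs-5 and pbs-2, thus had the first and the third highest means in their ring.

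Among the ATPases of the base only rpt-2 passed, although all 6 means were above 0. The rpt proteins form a ring that threads the substrate into the core, and in yeast the tail of Rpt2 helps to open the gate of the alpha ring. rpt-2 (F29G9.5) had 1.61, 1.54 and 0.83 in preparations 1, 2 and 3; the lowest of these was above all 15 values of the other rpt genes. Its mean was 1.33 ± 0.43 (SD, n = 3; limma adjusted p = 0.00357), a 2.51-fold difference. rpt-1 (C52E4.4) had 0.53, 0.64 and 0.70 and a mean of 0.62, just short of the threshold (limma adjusted p = 0.0632). rpt-6 (Y49E10.1) had 0.63, 0.45 and 0.36, and rpt-5 (F56H1.4) had 0.32, 0.30 and 0.35. The arrays agreed closely on rpt-5, with an SD of 0.03, the smallest of the 31 genes. Its mean of 0.32 was not past the threshold (limma adjusted p = 0.315). rpt-3 (F23F12.6) and rpt-4 (F23F1.8) were below 0 in preparation 1, at -0.17 and -0.54, and between 0.39 and 0.47 in preparations 2 and 3.

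Of the 4 non-ATPase subunits of the base, rpn-1 and rpn-10 rose. rpn-1 and rpn-2 are large scaffold proteins, and rpn-10 and rpn-13 are ubiquitin receptors. rpn-1 (T22D1.9) had 1.18, 1.25 and 1.06 in preparations 1, 2 and 3, so all arrays were above a 2-fold difference. Its mean was 1.16 ± 0.10 (SD, n = 3; limma adjusted p = 0.00381). rpn-2 (C23G10.4) had 0.52, 0.56 and 0.85 and a mean of 0.65 that did not pass (limma adjusted p = 0.0585). rpn-10 (B0205.3), which in C. elegans acts in the sex determination of the hermaphrodite germ line, had 0.64, 1.69 and 0.68, with preparation 2 well above the rest. Its mean was 1.00 ± 0.59 (SD, n = 3; limma adjusted p = 0.0218), and without preparation 2 it was 0.66 and no longer passed (limma adjusted p = 0.237). rpn-13 (C56G2.7) had -0.68, 0.08 and 0.22 and a mean of -0.13 (limma adjusted p = 0.756). The difference between the receptors was not tested.

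In the lid, rpn-6.2 and rpn-12 rose and 7 genes did not pass. rpn-12 (ZK20.5), a structural lid subunit, had 0.74, 1.10 and 0.70 and a mean of 0.84 ± 0.22 (SD, n = 3; limma adjusted p = 0.0209). It did not pass without preparation 2 (limma adjusted p = 0.187) or without preparation 3 (limma adjusted p = 0.0558). rpn-6.2 (F59B2.5) and rpn-6.1 (F57B9.10) are paralogues for the same lid position. rpn-6.1 is known in C. elegans for raising proteasome activity and stress resistance when overexpressed. rpn-6.2 had 1.60, 0.86 and 1.10 in preparations 1, 2 and 3 and a mean of 1.18 ± 0.38 (SD, n = 3; limma adjusted p = 0.00554). rpn-6.1 had -0.31, 0.86 and 0.49 and a mean of 0.35 (limma adjusted p = 0.391). Their difference, rpn-6.2 minus rpn-6.1, was 1.90, -0.01 and 0.61 on the arrays, so it was nearly absent in preparation 2, and its mean of 0.83 was smaller than its SD of 0.97. Whether the probes of these paralogues tell their RNAs apart was not tested.

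The lid genes rpn-11 and rpn-8 did not pass. rpn-11 (K07D4.3), the deubiquitinase of the lid, had -0.17, 0.55 and 0.44 and a mean of 0.28 (limma adjusted p = 0.45). rpn-8 (R12E2.3), its partner in the complex, had -0.79, -0.11 and 0.06 and the lowest mean of all 31 genes, -0.28 ± 0.45 (SD, n = 3; limma adjusted p = 0.456). The remaining structural subunits rpn-3 (C30C11.2), rpn-5 (F10G7.8), rpn-7 (F49C12.8) and rpn-9 (T06D8.8) had means between 0.28 and 0.34. Of these only rpn-5 was below 0 on an array, at -0.16 in preparation 1.

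The core and the regulatory particle showed no difference of 1 sign on all arrays. In the core particle 4 of 12 genes rose (33.3%), and in the regulatory particle 5 of 19 (26.3%), beside 12.6% of all genes called higher. The median of the mean ratios was 0.59 for the core and 0.34 for the regulatory particle, a difference of 0.25. On single arrays the core minus regulatory difference of medians was -0.07, 0.11 and 0.09 in preparations 1, 2 and 3, with a mean of 0.04 and an SD of 0.10, so the core was lower in preparation 1 and higher in the other two. The difference of 0.25 is thus larger than that on any single array, and the averages of the genes of both particles were close, at 0.54 for the core and 0.50 for the regulatory particle. Without rpn-6.2, the extra paralogue, the differences on single arrays were -0.03, 0.16 and 0.10. No p is given for these medians, since a sign permutation over 3 arrays cannot reach the threshold. Within the core, the difference of medians between alpha and beta ring was -0.44, -0.08 and -0.02, so the alpha ring was lower on every array, clearly so only in preparation 1. Within the regulatory particle, base minus lid was 0.13, -0.04 and 0.13.

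**Figure D2:**
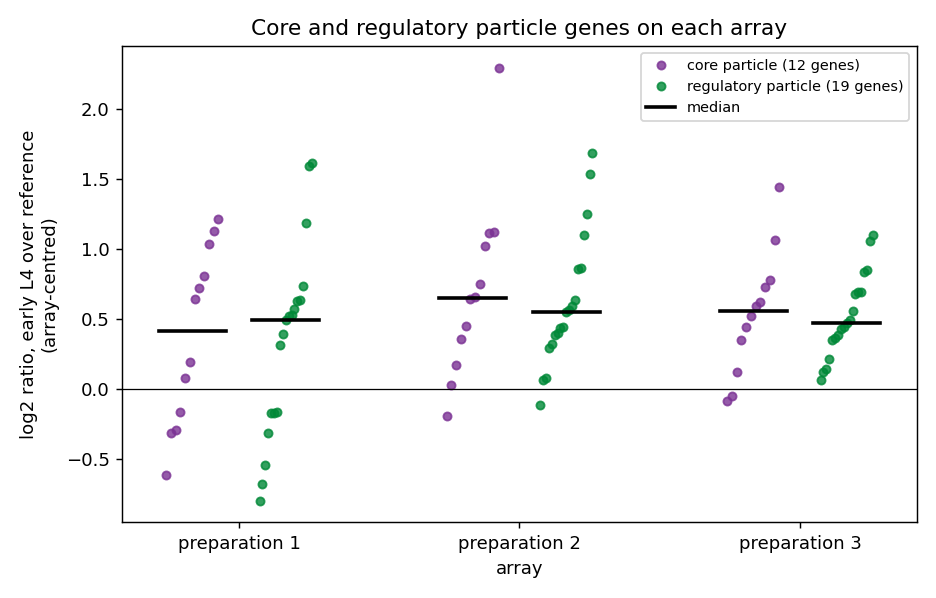
Array-centred log2 ratio (y axis) of each core particle gene (12, left of each pair, purple) and each regulatory particle gene (19, right, green) on the array of each preparation (x axis); black bars are medians. The medians lie between 0.42 and 0.65 for the core and between 0.47 and 0.55 for the regulatory particle, and the points of both particles overlap on every array.

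Preparation 1 split the genes more than the other preparations did. On its array 11 of 31 proteasome genes were below 0, against 2 on each of the other arrays. Among all genes with 3 values a larger share, 7601 of 15128, was below 0 in preparation 1. Of the 11 proteasome genes, 8 were above 0 in both preparations 2 and 3: pas-6, pbs-4, rpt-3, rpt-4, rpn-5, rpn-6.1, rpn-11 and rpn-13. Without preparation 1, pas-6, pbs-7, rpt-1, rpn-2 and rpn-6.1 passed the test as well. The opposite pattern, above 0 in preparation 1 and below 0 in both others, was seen in 0 of 31 genes. Only pas-7 was below 0 in both preparations 2 and 3, so almost no other result was possible. Among all genes with 3 values these patterns were about equally common, at 10.8% and 10.4%. All genes had a median near 0 on each array, whereas most proteasome genes lay above 0, so these shares are no like comparison. The 8 genes were 2 of 12 in the core and 6 of 19 in the regulatory particle. Across the 31 genes preparation 1 had a Spearman's rho of 0.64 with preparation 2 and of 0.56 with preparation 3, and preparations 2 and 3 had one of 0.80. Across all genes these were 0.57, 0.52 and 0.73; the points share the reference and the array layout, and genes are not independent replicates. Preparation 1 also had the highest median of the major sperm proteins, 2.19, and the least negative median of the oocyte genes, -1.77. Its median was the lowest for the muscle genes, 1.14 against 1.81 and 1.99, and for the neuronal genes, -0.95 against -0.22 and -0.40. For the intestinal genes it was not, at 1.21 against 2.025 and 1.20. Over all probes its values had an SD of 0.93, against 0.81 and 0.78. The part of these tissues in the split was not tested, and array and preparation cannot be told apart.

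**Figure D3:**
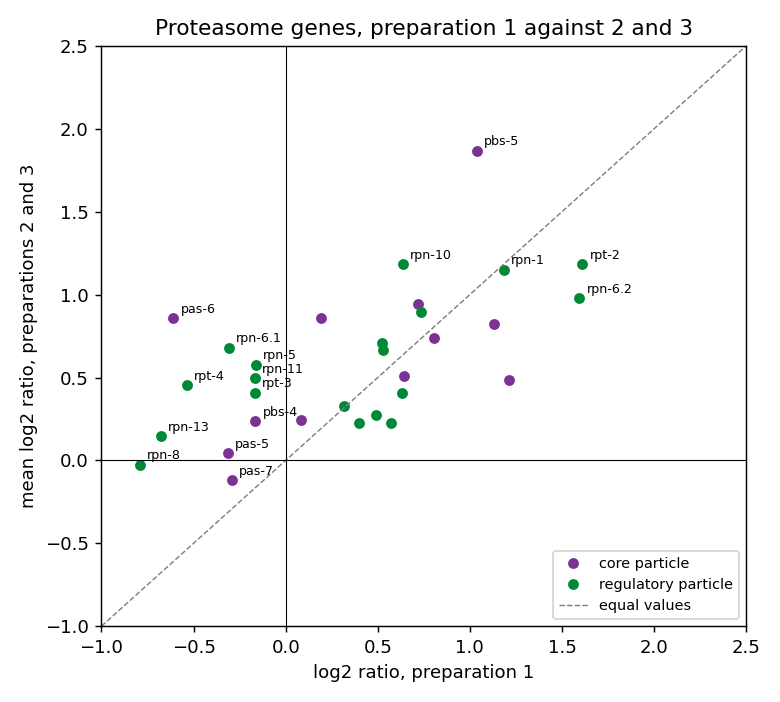
Log2 ratio of each proteasome gene in preparation 1 (x axis) against its mean in preparations 2 and 3 (y axis), core in purple and regulatory particle in green; the dashed line marks equal values, and names are given for genes below 0 in preparation 1 or with a mean above 1. Of the 11 genes left of 0, pas-6 at -0.61 is farthest above the line.

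Genes that work with the proteasome were read from lists of related factors. Of 10 measured genes of proteasome-bound factors and of the pathway of SKN-1, the transcription factor that raises proteasome genes in C. elegans when the proteasome is impaired, 2 rose and 1 fell, with a median of 0.03. With so few genes, this is close to the 12.6% higher and 10.1% lower of all genes. ecps-1 (D2045.2), related to a scaffold that binds the proteasome, had 1.48, 0.91 and 1.56 and a mean of 1.32 ± 0.36 (SD, n = 3; limma adjusted p = 0.00309). The proteasome-bound deubiquitinase gene ubh-4 (C08B11.7) had a mean of 0.80 ± 0.08 (SD, n = 3; limma adjusted p = 0.0227). wdr-23 (D2030.9), a repressor of SKN-1, fell, with -0.84, -1.09 and -1.12. The call of ubh-4 was lost without preparation 2 and without preparation 3. skn-1 itself (T19E7.2) had a mean of -0.52, the protease gene ddi-1 (C01G5.6), which activates a form of SKN-1, had -0.44, and the glycanase gene png-1 (F56G4.5) had -0.07. None of these 3 passed (limma adjusted p = 0.153, 0.206 and 0.877).

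Of 7 measured genes of ubiquitin shuttling and the CDC-48 unfoldase, 2 rose and 1 fell. cdc-48.2 (C41C4.8) had 1.98, 2.58 and 1.74, above rpt-2 on each array. Its mean was 2.10 ± 0.43 (SD, n = 3; limma adjusted p = 0.000349), a 4.28-fold difference, while its paralogue cdc-48.1 (C06A1.1) had -0.39, 0.82 and 0.73 and did not pass (limma adjusted p = 0.359). rad-23 (ZK20.3), which carries ubiquitin-bearing proteins to the proteasome, had 0.76, 1.78 and 0.91 (mean 1.15, limma adjusted p = 0.0103), and its call was lost without preparation 2. The ubiquitin ligase gene chn-1 (T09B4.10) fell, with a mean of -1.08 ± 0.16 (SD, n = 3; limma adjusted p = 0.00605). Of 6 measured genes of ubiquitin and its conjugation, ubq-2 (ZK1010.1), a ubiquitin gene, rose (mean 0.72) and uev-3 (F26H9.7), a variant of conjugating enzymes, fell (mean -0.89). The list holds 28 genes, and none of its ubc genes, those of the conjugating enzymes themselves, was among the 6. The call of ubq-2 was lost without any 1 of the preparations, and that of uev-3 without preparation 2. The counts of both lists are too small to set apart from the 12.6% higher and 10.1% lower of all genes.

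Of 23 genes of cullins, Skp1-related proteins and their RING partners, 5 fell and 1 rose, with a median of -0.44, against the positive median of the proteasome genes. The Skp1-related genes skr-5 (F47H4.10) and skr-8 (C52D10.9) had -2.13 ± 0.58 and -1.58 ± 0.38 (SD, n = 3; limma adjusted p = 0.000469 and 0.00122). cul-1 (D2045.6), the scaffold of the ligases that Skp1 proteins serve, was the 1 that rose, with 0.69. Of 13 deubiquitinases 2 rose, usp-5 (T27A3.2) at 1.01 and math-33 (H19N07.2) at 0.73, and 2 fell, usp-46 (R10E11.3) at -1.12 and otub-3 (F21D5.2) at -0.73. The shares of the deubiquitinases lie near those of all genes, 12.6% higher and 10.1% lower, and 21.7% of the cullin list was lower. Without preparation 2 the calls of cul-1, rbx-2, usp-5, math-33 and otub-3 were lost, and without preparation 3 those of cul-1, rbx-2, math-33 and otub-3. rbx-2 (R10A10.2), a RING partner of cullins and 1 of the 5 that fell, had a mean of -0.75. usp-14 (C13B4.2), which belongs to this list and to the proteasome-bound factors, had 0.53, 0.46 and 0.38 and a mean of 0.46 that did not pass (limma adjusted p = 0.159).

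Of 5 other large assemblies, 4 had higher shares of called genes than the proteasome, with no test of the difference between lists. In the chaperonin CCT, which folds actin and tubulin, 4 of 6 genes rose and the median was 0.83. cct-7 (T10B5.5) had a mean of 1.76 and cct-2 (T21B10.7) of 1.21. In the translation initiation factor eIF3, some of whose subunits share domains with those of the lid, 5 of 8 rose, with a median of 0.80. The smallest adjusted p-values of this list were those of eif-3.B (Y54E2A.11), at 1.27, and eif-3.J (Y40B1B.5), at 0.94. In the vacuolar ATPase 8 of 17 rose, with a median of 0.59; the smallest adjusted p-values were those of vha-12 (F20B6.2), at 2.05, and vha-6 (VW02B12L.1), at 2.01, which is also 1 of the 7 intestinal markers. Of 63 ribosomal protein genes 24 rose, with a median of 0.64; rpl-4 (B0041.4) and rpl-9 (R13A5.8) had the smallest adjusted p-values. Like the proteasome, none of these 4 lists had a gene called lower (limma). As with the proteasome, the calls rested on the preparations: without preparation 2, the calls of 8 ribosomal, 2 CCT, 2 eIF3 and 6 vacuolar ATPase genes held, those of cct-1, cct-6 and eif-3.J being among the lost. Without preparation 3, the calls of 13 ribosomal, 3 CCT, 3 eIF3 and all 8 vacuolar ATPase genes held. The ribosomal list had its lowest median in preparation 1, at 0.36, against 0.78 and 0.73 in preparations 2 and 3. The COP9 signalosome, a relative of the lid, had 2 measured genes, csn-2 at -0.11 and csn-5 at -0.67, and neither passed (limma adjusted p = 0.793 and 0.088).

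**Figure D4:**
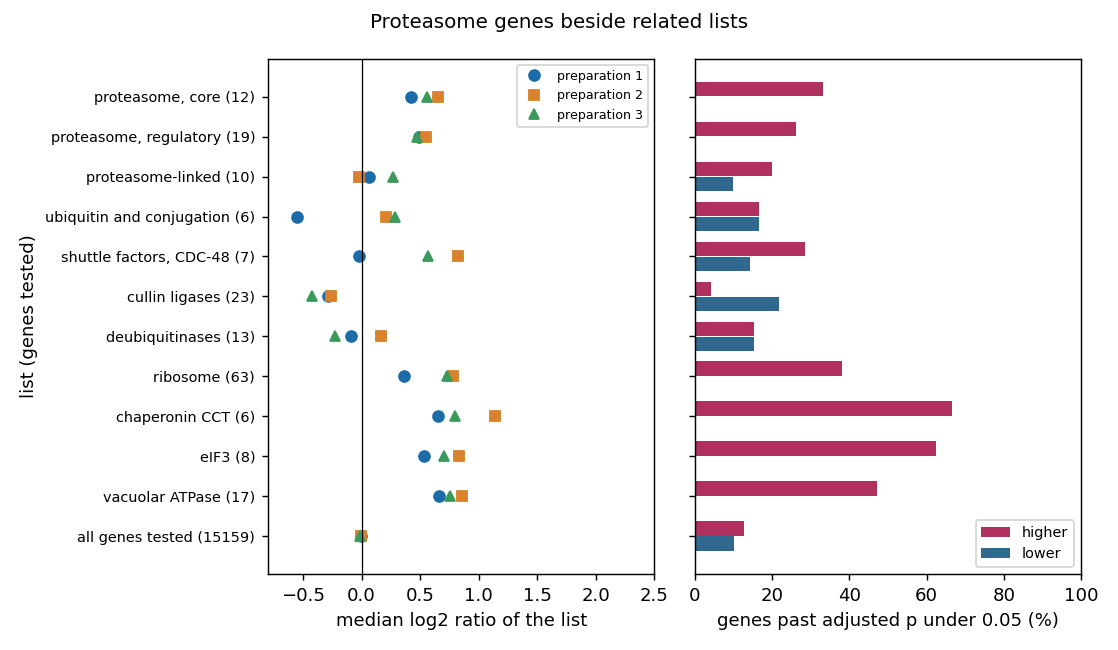
Left, the median array-centred log2 ratio of each list on the array of each preparation (symbols); right, the percent of genes of each list called higher (red) or lower (blue) at limma adjusted p under 0.05, with the number of genes tested after each name. The core and regulatory particle have no gene called lower and 33.3% and 26.3% called higher, beside 12.6% and 10.1% of all genes called higher and lower.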

How the data were processed

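The deposited table holds, for each of 3 arrays, a log2 ratio of both channels per probe. The log2 scale was read from the deposited values: raised as powers of 2, at least 99.96% per array gave whole thousandths (within 0.01 of a thousandth). Not given in the sources used here were scanner, dyes, background correction and normalization. The members, the gene lists and the rule for named genes were chosen with earlier results of these data known; the rule names every proteasome gene with a probe and, for each pathway list, the most significant genes in each direction. skn-1, ddi-1, png-1, cdc-48.1, usp-14, csn-2, csn-5, rbx-2, cct-1 and cct-6 were named after their values were seen.

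Probes were named from an old platform annotation, with symbols updated through the gene table of assembly WBcel235; all 31 proteasome genes matched by gene number. Probes of several genes were left out, among them 1 shared by rpn-13 and let-767. Each array was centred on its median, probes of a gene were averaged, and genes with at least 2 values (15159) were tested two-sided with limma 3.58.1 (lmFit, eBayes) under R 4.3.3, on 2 residual degrees of freedom plus 7.59 from the prior. The reference is no replicated group, so its own spread is left out. On simulated ratios for these 15159 genes with 200 changed, the test recovered 21% of the 2-fold and 94% of the 4-fold changes. Most 2-fold changes of a single gene were thus missed there. In the data far more genes, 3444, were called, so the adjustment was stricter in the simulation. Its shares therefore do not give the power in the data. Other settings tried were quantile normalization, no centring, genes with 3 values, eBayes with trend and robust fitting, single probes, and leaving out each preparation; the fit of every probe was added after seeing the data.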

Additional observations from a re-analysis of the deposited data

How the results depend on the processing

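The number of proteasome genes called higher was 9 with the ratios as deposited, with genes measured on all arrays, with trend and robust settings and with every probe, and 10 after quantile normalization and with each probe on its own, where pbs-2 was added. With 1 preparation left out it lay between 4 and 14: 14 without preparation 1, 4 without preparation 2 and 6 without preparation 3. All 9 calls were kept without preparation 1, which added pas-6, pbs-7, rpt-1, rpn-2 and rpn-6.1. Without preparation 2 the calls of pas-1, pas-2, pbs-6, rpn-10 and rpn-12 were lost, and without preparation 3 those of pas-1, pas-2 and rpn-12. pbs-5, rpt-2, rpn-1 and rpn-6.2 passed in every alternative run. In none was a proteasome gene called lower (limma). Some calls of the other lists also depended on the trend and robust settings, which kept all 9 proteasome calls. Under these settings 20 ribosomal, 3 CCT, 4 eIF3 and all 8 vacuolar ATPase calls held. Those of ubq-2, cul-1, rbx-2 and math-33 were lost. The median of all proteasome genes, 0.37, was 0.43 after quantile normalization and 0.42 with each probe on its own or with every probe. Leaving out preparations gave 0.39 to 0.51 for it, 0.45 to 0.66 for the core, 0.35 to 0.50 for the regulatory particle and 0.10 to 0.21 for the core minus regulatory difference. With 1 preparation left out, 4 genes had means on both sides of 0: pas-5 from -0.20 to 0.045 (positive without preparation 1), rpn-13 from -0.30 to 0.15 (positive without preparation 1), rpt-4 from -0.051 to 0.45 (negative without preparation 2, at -0.034, and without preparation 3) and pbs-4 from -0.067 to 0.24 (negative without preparation 3). None of these 4 passed in any of these fits, and the cause was not tested. The share of higher genes among all called genes lay between 52.6% and 57.6%, and the number of genes called, 3444, between 2423 and 3970 under all these settings. No paired analysis was possible because all arrays belong to 1 group. Spot brightness was not used here, so limits from signal over background could not be seen.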

Other observations

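No 2 of the 33 genes of these classes in the gene table stand next to each other on a chromosome. Of 51 measured genes that directly neighbour 1 of the 31 proteasome genes, 7 were called higher and 3 lower (limma), beside 12.6% and 10.1% of all genes, and their median was 0.03. One neighbour has a role in the same pathway: rad-23, at 1.15, lies next to rpn-12, at 0.84. The others called higher were rplp-0 beside pas-5, K07A12.5 beside pbs-7, K05C4.2 beside pbs-5, F10G7.5 beside rpn-5, hsp-110 beside rpn-3 and mans-2 beside rpt-1; of these, pas-5, pbs-7, rpn-5, rpn-3 and rpt-1 were not called themselves. The 3 called lower were pqn-48 beside rpn-11, at -1.32, cids-1 beside pbs-6, at -0.97, and nemt-1 beside rpn-7, at -0.91. Of their proteasome neighbours pbs-6 was itself called higher. All neighbours were named after their values were seen. The probe shared by rpn-13 and let-767 had -0.03, 0.94 and 0.56 in preparations 1, 2 and 3, and preparation 1 was again the lowest.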
